A study of Mus musculus with 15 samples.

Results

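A set of 9 genes of the acute-phase response and of complement was followed in primary articular chondrocytes of the mouse, in which tankyrase had been knocked down or inhibited. They were chosen by name, with earlier results of these data known. All 9 had a row in each of the count tables, which list 24134 genes. The members were the serum amyloid A genes *Saa1*, *Saa2* and *Saa3*, the lipocalin *Lcn2*, haptoglobin (*Hp*), ceruloplasmin (*Cp*), the long pentraxin *Ptx3*, the complement component *C3* and complement factor B (*Cfb*). The cells came from the femoral condyles and tibial plateaus of 4- to 5-day-old ICR mice and were sequenced at passage 0. There were 3 libraries per group, called biological replicates, but the labels do not say how many animals were pooled or whether they came from separate litters, so p-values measure the spread between these libraries. In the siRNA set the cells carried control siRNA (siCtrl) or siRNAs against *Tnks* and *Tnks2* together (siTnks/2), and no time after transfection was given. In the inhibitor set they were kept for 108 h with the solvent DMSO, with 10 μM XAV939 or with 10 μM IWR-1, small-molecule inhibitors of the tankyrases TNKS and TNKS2. The study's methods give a medium with serum for these chondrocytes, and name no cytokine added to the 5 groups.

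The acute-phase response is the change in secreted proteins that follows injury or infection. The liver is its main source, where interleukin 6 acting through STAT3, and interleukin 1 acting through NF-kB and C/EBP factors, raise transcription of serum amyloid A, haptoglobin and related genes, but joint cells also make several of these proteins. C3 is the protein on which all routes of complement activation converge, and factor B forms with it the C3 convertase of the alternative route. In cartilage, LCN2, SAA proteins and complement are known as products of chondrocytes exposed to inflammatory cytokines.

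The libraries held 26857070 to 36615194 reads counted on genes, and each set was tested across all genes with edgeR's quasi-likelihood F test. A call is an adjusted p-value under 0.05 (Benjamini-Hochberg over 13672 genes in the siRNA set and 13873 in the inhibitor set). Levels are CPM, the share of a library's counts in parts of 1e6, on library sizes scaled jointly over the 15 libraries. The targeted genes were lower after knockdown. *Tnks* measured 70.0, 58.9 and 71.0 CPM in siCtrl and 19.7, 12.9 and 24.2 CPM in siTnks/2, and fell by 1.81 on the log2 scale (SE 0.22, edgeR adjusted p = 0.00569). *Tnks2* fell by 1.10 (SE 0.11, edgeR adjusted p = 0.00384). The cells carried chondrocyte markers at summed levels of 29280 to 39632 CPM in DMSO and 97925 to 130389 CPM in siCtrl. Of 17 leukocyte markers, 5 had at most 3 counts in every DMSO library and 10 in every siCtrl library, and *Ptprc* (CD45) had at most 5 counts in any library. The others were not all so low, and the 17 summed to 15.7 to 20.4 CPM in DMSO, 17.9 to 19.9 CPM in siCtrl and 38.6 to 60.7 CPM in siTnks/2. Of 12 hepatocyte markers, 7 had at most 3 counts in every DMSO library, and *Ttr* had no count in any of the 15 libraries.

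*Saa1*, *Saa2* and *Saa3* lie together on chromosome 7 (mm10, positions 46711998 to 46754313). *Saa1* and *Saa2* are near copies of each other and *Saa3* is not, which bears on how reads can be assigned. The RefSeq-linked transcripts of *Saa1* and *Saa2* were 93.9% identical in a global alignment (572 of 609 columns), against 60.3% for *Saa1* and *Saa3*. Of the 560 stretches of 50 bases in the *Saa1* transcript, 74 (13.2%) also stood in the *Saa2* transcript, so their separate values are less certain than their sum. *Lcn2* is on chromosome 2 (32384637 to 32387739), *Hp* on chromosome 8 (109575128 to 109579172), and *Cp* (19956933 to 20009750) and *Ptx3* (66219887 to 66225806) on chromosome 3. *C3* (57203967 to 57228136) and *Cfb* (34856374 to 34862514) are on chromosome 17. *Cfb* shares 2246 of its 2825 exon bases with *Gm20547* on the same strand, so its value is uncertain. *Cp* shares 108 exon bases with *Hps3* on the other strand.

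RefSeq promoter windows (GRCm38.p6) were at hand for 7 of the 9 genes, not for *Hp* and *Cfb*, and the 250 bases before the start site were searched for letters bound by factors of the acute-phase response. The C/EBP letters TTGCNNAA, on either strand, stood in the window of all 7 genes (for *Cp*, in 1 of its 2 windows), and in 9.57% of 32841 mouse promoter windows of the same length. A 10-letter NF-kB consensus and the STAT letters TTCNNNGAA stood in none of the 7, and in 7.25% and 7.02% of all windows. A match is only a match of letters, and these exact letters being absent says nothing about a factor. The windows of 6 genes are shown 5′ to 3′ on the strand of the gene because they let the C/EBP match, in capitals, be compared between the near copies and the unrelated genes.
Saa1 (chr7:46742981-46743230, minus strand): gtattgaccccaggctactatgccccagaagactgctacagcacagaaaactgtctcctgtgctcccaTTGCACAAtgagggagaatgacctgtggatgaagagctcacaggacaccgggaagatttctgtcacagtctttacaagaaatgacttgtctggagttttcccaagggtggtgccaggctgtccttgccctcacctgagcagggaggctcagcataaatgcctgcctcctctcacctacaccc
Saa2 (chr7:46751583-46751832, plus strand): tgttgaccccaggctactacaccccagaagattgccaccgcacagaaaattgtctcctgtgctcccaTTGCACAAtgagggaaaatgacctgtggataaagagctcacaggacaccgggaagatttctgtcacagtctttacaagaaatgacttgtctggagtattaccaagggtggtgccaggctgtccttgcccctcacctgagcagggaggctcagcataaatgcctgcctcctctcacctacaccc
Saa3 (chr7:46715677-46715926, minus strand): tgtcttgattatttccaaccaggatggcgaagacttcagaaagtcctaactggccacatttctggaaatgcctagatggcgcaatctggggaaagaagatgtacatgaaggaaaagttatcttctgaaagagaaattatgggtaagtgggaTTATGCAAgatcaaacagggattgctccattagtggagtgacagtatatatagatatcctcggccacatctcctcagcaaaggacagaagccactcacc
Lcn2 (chr2:32387740-32387989, minus strand): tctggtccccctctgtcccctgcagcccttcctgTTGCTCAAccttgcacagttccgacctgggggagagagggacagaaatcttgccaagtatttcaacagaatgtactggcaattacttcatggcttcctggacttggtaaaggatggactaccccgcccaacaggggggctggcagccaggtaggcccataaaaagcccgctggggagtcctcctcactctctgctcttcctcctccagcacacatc
Ptx3 (chr3:66219637-66219886, plus strand): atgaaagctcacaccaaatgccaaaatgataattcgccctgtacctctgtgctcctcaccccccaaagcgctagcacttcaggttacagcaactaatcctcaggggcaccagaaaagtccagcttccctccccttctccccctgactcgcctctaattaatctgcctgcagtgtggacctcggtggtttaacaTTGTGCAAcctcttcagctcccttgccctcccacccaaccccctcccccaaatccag
C3 (chr17:57228137-57228386, minus strand): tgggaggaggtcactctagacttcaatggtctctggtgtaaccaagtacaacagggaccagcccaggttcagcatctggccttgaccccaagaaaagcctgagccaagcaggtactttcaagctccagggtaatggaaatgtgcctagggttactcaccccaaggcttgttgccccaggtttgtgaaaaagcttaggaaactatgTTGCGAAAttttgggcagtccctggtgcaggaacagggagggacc
Counted from the start site, the match began at −182 in *Saa1* and at −183 in *Saa2*, whose windows were 94.8% identical. It began at −99 in *Saa3*, −216 in *Lcn2*, −57 in *Ptx3* and −45 in *C3*, and at −70 in the window of *Cp* that held it.

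The control cells of the inhibitor set and of the siRNA set differed more in each of the 7 genes tested in both sets than any treated group did from its own control. All 9 genes were higher with DMSO than with siCtrl, and the broad order of the groups was the same for every member. siCtrl and siTnks/2 were lowest, IWR-1 came next, and DMSO and XAV939 were highest, with no overlap between the libraries of the siRNA set and those of IWR-1. Which of siCtrl and siTnks/2 was lowest, and which of DMSO and XAV939 was highest, varied between genes. In one model over all libraries, 7 of the 7 genes tested in each set were called higher with DMSO than with siCtrl, while 48.0% of all 14271 genes were called (23.0% higher, 25.0% lower). The siRNA and DMSO cultures differed in transfection, in solvent and possibly in time, and these cannot be told apart.

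*Saa3*, the serum amyloid A form made outside the liver, spanned the widest range of the 7 genes tested in both sets. It measured 20361, 23749.7 and 12636 CPM in the DMSO libraries, where it ranked 2nd to 3rd of all genes by count, and 3.06, 2.46 and 2.01 CPM in siCtrl. The log2 difference was 12.88 (SE 0.50, edgeR adjusted p = 1.02e-10). *Saa1* and *Saa2*, the circulating forms, had 0 or 1 count in every siCtrl library and 48.4 to 104 and 74.0 to 142 CPM in DMSO, at least 751-fold and at least 1074-fold higher against a floor of 3 counts per library. In siTnks/2, *Saa1* had 2, 5 and 0 counts and *Saa2* had 0, 0 and 1, so no change with knockdown could be measured for either. *Lcn2*, which binds iron-carrying siderophores, measured 12591 ± 3420.4 CPM in DMSO and 39.6 ± 15.5 CPM in siCtrl (SD, n = 3 each), a log2 difference of 8.32 (SE 0.39). *Hp*, whose protein binds free haemoglobin, measured 747 ± 164 CPM in DMSO and 1.21 ± 0.22 CPM in siCtrl, 9.27 apart (SE 0.27). *Cp*, the copper-carrying ferroxidase, was the member that differed least, with 410.2 ± 38.7 against 117 ± 18.2 CPM and a difference of 1.80 (SE 0.14). *Ptx3* differed by 3.41 (SE 0.26), *C3* by 7.29 (SE 0.41) and *Cfb* by 6.40 (SE 0.33), each called in that model.

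The plot of each gene's CPM in the 15 libraries shows this order. The 9 genes together took up 2.55% to 4.17% of all counted reads in DMSO, 2.61% to 3.56% in XAV939 and 0.636% to 0.805% in IWR-1, against 0.0214% to 0.0262% in siCtrl and 0.0307% to 0.0364% in siTnks/2. Most of the share was *Saa3* and *Lcn2*, which made up 2.21% to 3.78% of the reads in DMSO. DMSO replicate 3 was the lowest of the DMSO libraries for 7 of the 9 genes, the exceptions being *C3* and *Cfb*. Without it, the calls for XAV939 against DMSO ended for *Cfb* (−0.57, edgeR adjusted p = 0.0835) and for *Cp* (0.33, edgeR adjusted p = 0.114).

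**Figure D1:**
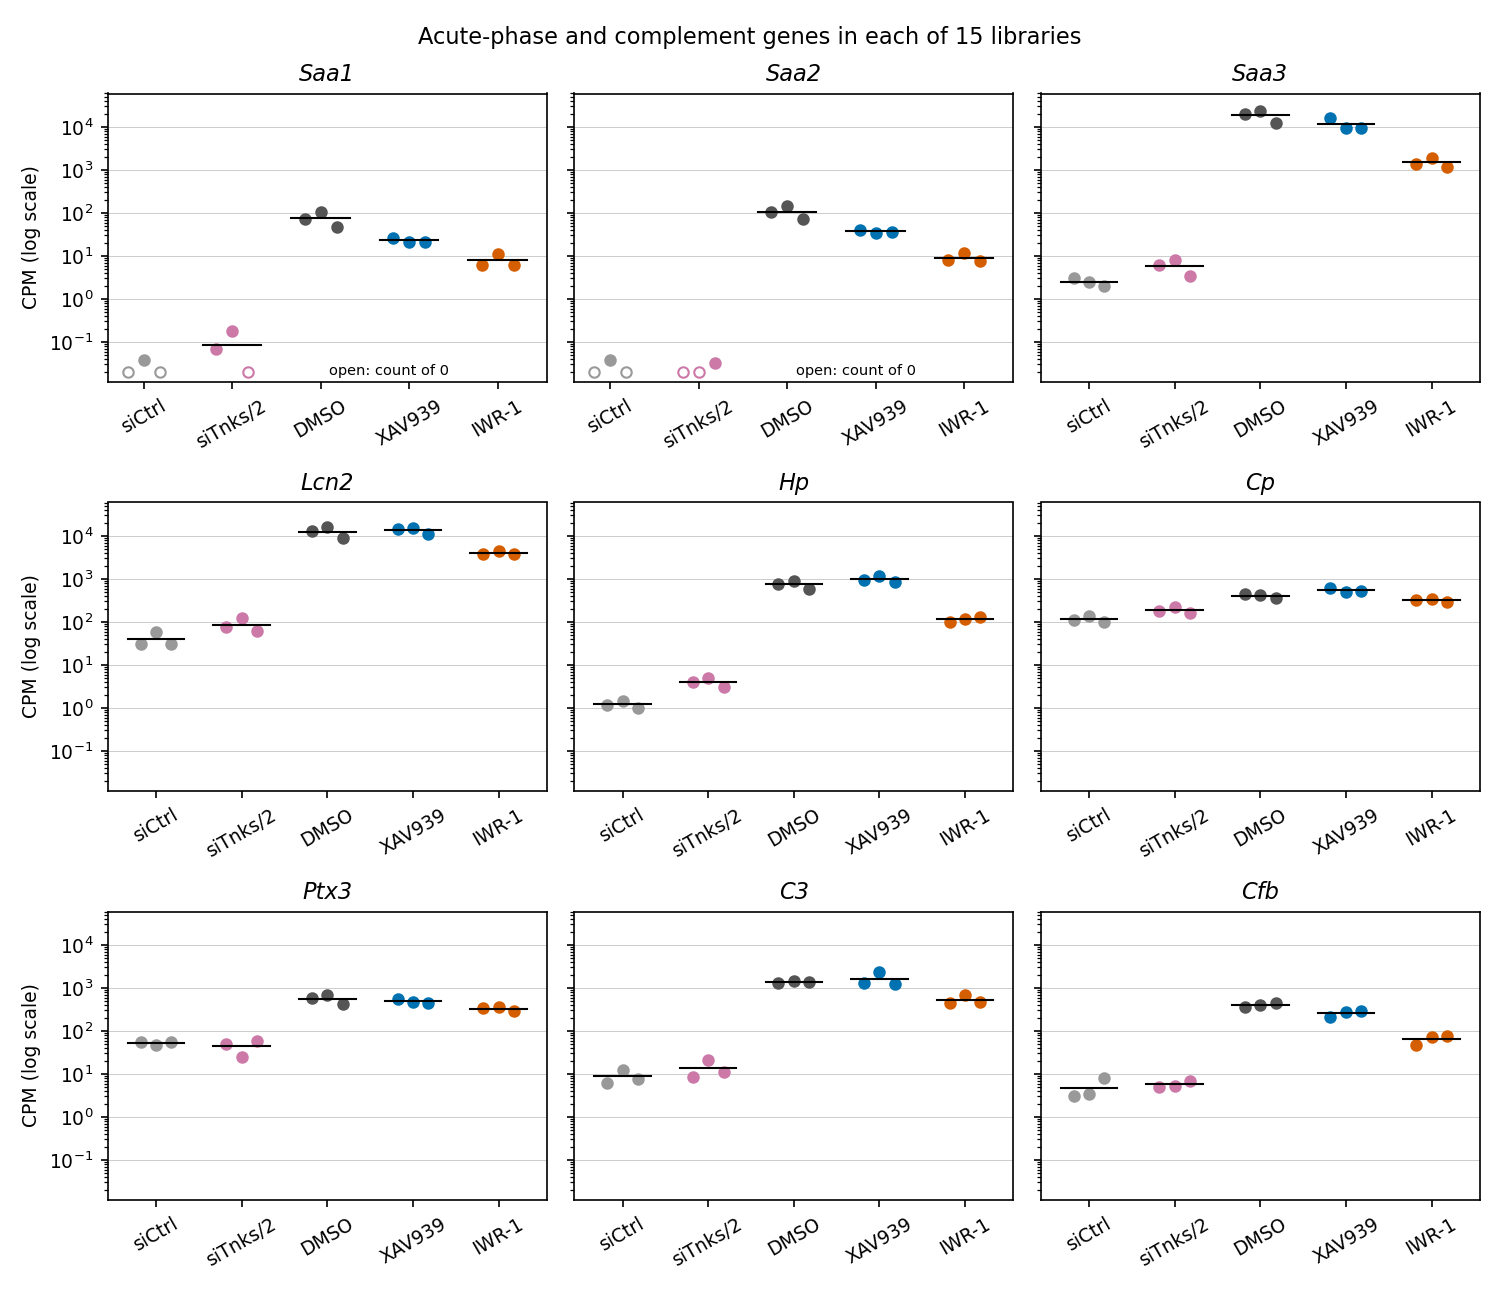
CPM of each of the 9 genes (log axis) in every library of the 5 groups, with a line at the group mean where that lies within the axis, and open circles at the axis floor for a count of 0. The libraries of siCtrl and siTnks/2 lie below all inhibitor-set libraries for every gene, and the IWR-1 libraries lie between them and those of DMSO and XAV939.

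Compared per length of exon, *Saa3* and *Lcn2* had the highest levels of the 9 in DMSO, 7258 ± 2186 and 4800.3 ± 1304 RPKM (CPM per kilobase of exon, SD, n = 3), and *Hp* (465 RPKM), *C3* (267 RPKM), *Ptx3* (209.6 RPKM) and *Cfb* (144 RPKM) followed. *Cp*, *Saa2* and *Saa1* were lowest by this length, at 42.9, 42.6 and 30.3 RPKM. The annotated exons of *Saa1*, *Saa2* and *Saa3* join to 2478, 2518 and 2606 bases, against 609, 606 and 555 bases in their RefSeq-linked transcripts. With the length of the RefSeq-linked transcripts, *Saa3* came to 34082 RPKM and *Saa2* and *Saa1* to 177 and 123 RPKM, above *Cp* at 70.7 RPKM. By that length *Ptx3* (296 RPKM) also stood above *C3* (268 RPKM), and *Saa2* above *Cfb* (148 RPKM). In siCtrl the order was another one, with *Ptx3* (19.8 RPKM), *Lcn2* (15.1 RPKM) and *Cp* (12.3 RPKM) highest and *Saa3* at 0.964 RPKM, and by transcript length *Lcn2* (43.2 RPKM) came before *Ptx3* (27.9 RPKM).

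Every member was lower with IWR-1. All 9 genes were called lower than in DMSO, while 36.4% of the 13873 genes tested were called (20.2% lower, 16.2% higher). The largest falls were those of the serum amyloid A genes, 9.47-fold to 12.4-fold, then *Hp* (6.35-fold) and *Cfb* (6.14-fold), and *Lcn2*, *C3* and *Ptx3*, 3.12-fold to 1.72-fold, and *Cp* fell least. The median log2 fold change over the 13873 genes was 0.01.

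*Saa3* measured 1408, 1944 and 1186 CPM with IWR-1, and fell by 3.63 on the log2 scale (SE 0.33, edgeR adjusted p = 1.77e-05). *Saa2* measured 8.27, 11.6 and 7.46 CPM with IWR-1 against 106, 142 and 74.0 CPM in DMSO, and fell by 3.55 (SE 0.25, edgeR adjusted p = 4.07e-06). *Saa1* measured 6.07, 11.3 and 6.28 CPM against 72.2, 104 and 48.4 CPM, and fell by 3.24 (SE 0.31, edgeR adjusted p = 2.62e-05). No IWR-1 library of the 3 genes reached a DMSO library, and the SAA genes kept this call in each of the 9 fits that left out 1 library.

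*Hp* measured 102, 119 and 129 CPM with IWR-1 and 765, 900.1 and 574 CPM in DMSO, a fall of 2.67 (SE 0.19, edgeR adjusted p = 5.03e-06). *Cfb* measured 47.8, 70.8 and 78.0 CPM against 359, 411 and 448 CPM, a fall of 2.62 (SE 0.19, edgeR adjusted p = 5.68e-06). *C3*, its partner in the alternative route, measured 453, 682 and 479.5 CPM against 1283, 1448 and 1393 CPM, a smaller fall of 1.34 (SE 0.24, edgeR adjusted p = 0.0013). All IWR-1 libraries of these 3 genes lay below all DMSO libraries.

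*Lcn2* measured 3730.5, 4536 and 3759 CPM with IWR-1 against 12837, 15882 and 9055 CPM in DMSO, a fall of 1.64 (SE 0.22, edgeR adjusted p = 0.000204). *Ptx3*, a pentraxin made locally that binds complement components, measured 335, 352 and 284 CPM against 578, 684 and 425 CPM, a fall of 0.79 (SE 0.17, edgeR adjusted p = 0.00447). *Cp* measured 318, 348 and 284 CPM against 438, 426 and 366 CPM, a fall of 0.36 (SE 0.13, edgeR adjusted p = 0.0457). The libraries of *Cp* did not overlap either, but its call ended without DMSO replicate 1 or 2 or any IWR-1 replicate, with log2 fold changes from −0.43 to −0.30 and adjusted p-values from 0.058 to 0.152, and under upper-quartile normalization (−0.33, adjusted p = 0.0687). Of the members, 9 of 9 had groups that did not overlap, as had 51.3% of all genes tested. An exact permutation test of 3 libraries against 3 cannot go below p = 0.1, which was the value for each.

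XAV939 at the same dose and time changed fewer of the genes, and not all in the same direction. *Saa1*, *Saa2* and *Cfb* were lower and *Cp* was higher than in DMSO, 4 of 9 genes called, while 17.4% of all genes were called (9.85% lower, 7.57% higher). *Saa3*, *Lcn2*, *Hp*, *Ptx3* and *C3* were not called.

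*Saa1* measured 26.8, 20.9 and 21.1 CPM with XAV939, all below the lowest DMSO library, and fell by 1.69 (SE 0.29, edgeR adjusted p = 0.00301). *Saa2* measured 41.0, 34.8 and 36.3 CPM and fell by 1.51 (SE 0.23, edgeR adjusted p = 0.00151). These 2 calls were kept without any 1 of the 9 libraries. *Cfb* measured 211, 274 and 292 CPM and fell by 0.63 (SE 0.18, edgeR adjusted p = 0.0366), with no overlap with DMSO. Its call was kept without IWR-1 replicate 1 or 3 or XAV939 replicate 3, and ended without each of the other libraries, where the log2 fold change lay between −0.71 and −0.50 and the adjusted p-value between 0.0569 and 0.123. *Cp* measured 609, 506 and 518 CPM and rose by 0.42 (SE 0.13, edgeR adjusted p = 0.0422). This call was kept only without XAV939 replicate 2, and in the other 8 such fits *Cp* stood at 0.33 to 0.47 with adjusted p-values from 0.0541 to 0.145. It also ended without a filter on low counts (0.40, adjusted p = 0.0581) and in a fit of XAV939 and DMSO alone (0.41, adjusted p = 0.0970).

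*Saa3* measured 16390.3, 9361 and 9502 CPM with XAV939, which overlapped the DMSO range, at a log2 fold change of −0.67 (SE 0.30, 95% interval −1.33 to −0.02, edgeR adjusted p = 0.145). *Hp* measured 967, 1167 and 828 CPM, at 0.42 (SE 0.18, edgeR adjusted p = 0.139). With the replicate number as a block, both passed the test, *Saa3* at −0.64 (adjusted p = 0.0300) and *Hp* at 0.42 (adjusted p = 0.0355). *Lcn2* measured 14529.7, 15510.2 and 11382 CPM, at 0.15 (95% interval −0.33 to 0.62, edgeR adjusted p = 0.672). *Ptx3* measured 550.5, 484 and 453 CPM, at −0.17 (95% interval −0.54 to 0.21, edgeR adjusted p = 0.536). *C3* measured 1278, 2317 and 1263 CPM, at 0.25 (95% interval −0.27 to 0.77, edgeR adjusted p = 0.493), and replicate 2 stood well above the other XAV939 libraries. Without XAV939 replicate 2 the *C3* value was −0.093, and without DMSO replicate 3 that of *Lcn2* was −0.057.

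Since the inhibitors shared dose, time and solvent, they could be compared directly. All 9 genes were called lower with IWR-1 than with XAV939, while 17.6% of all genes were called (10.2% lower, 7.37% higher). The largest difference was that of *Hp*, 8.49-fold (log2 −3.09, SE 0.20, edgeR adjusted p = 3.05e-05), then *Saa3*, 7.79-fold (−2.96, SE 0.32), *Saa2* (−2.04, SE 0.24), *Cfb* (−1.99, SE 0.19), *Lcn2* (−1.79, SE 0.22), *C3* (−1.59, SE 0.24) and *Saa1* (−1.55, SE 0.30). *Cp* (−0.78, SE 0.13) and *Ptx3* (−0.62, SE 0.17, edgeR adjusted p = 0.0306) differed least, and no member's IWR-1 libraries overlapped its XAV939 libraries, as was so for 37.7% of all genes. The call of *Ptx3* ended without any IWR-1 replicate and without XAV939 replicate 1 or 2 (−0.68 to −0.53, adjusted p from 0.0574 to 0.102).

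**Figure D2:**
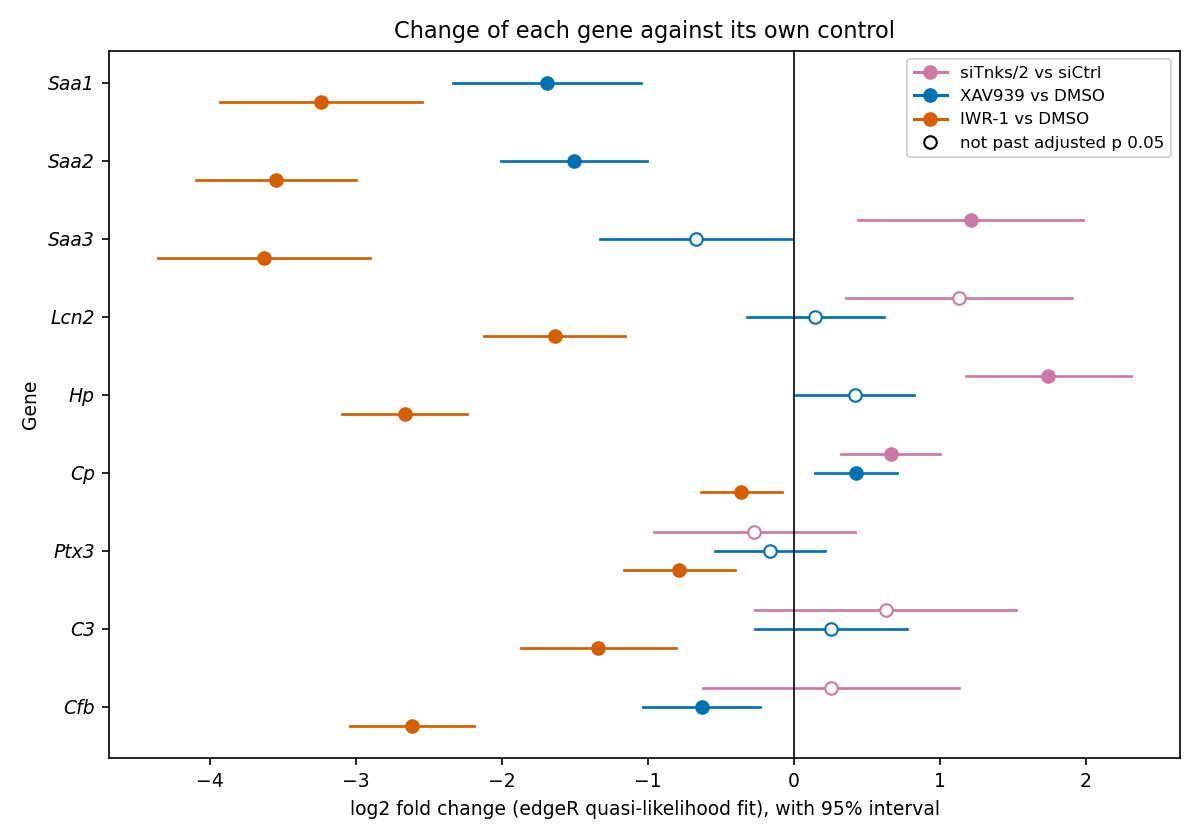
Log2 fold change of each gene against the control of its own set, with the 95% interval of the edgeR fit, for siTnks/2, XAV939 and IWR-1. Filled circles passed an adjusted p of 0.05 and open circles did not. The IWR-1 estimates of all 9 genes lie left of 0. The knockdown estimates of *Saa3*, *Lcn2*, *Hp*, *Cp*, *C3* and *Cfb* lie right of 0 and that of *Ptx3* left of it. The knockdown intervals of *C3*, *Cfb* and *Ptx3* cross 0. The fit shown has no replicate block. With the block, *Lcn2* and *C3* also passed with siTnks/2, and *Saa3* and *Hp* with XAV939. *Saa1* and *Saa2* could not be tested in the siRNA set.

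The proportions among the serum amyloid A genes also differed between the inhibitor groups, as the plot of their count ratios shows. *Saa3* had 96.5 to 114 counts for each count of *Saa1* and *Saa2* together in DMSO, 165 to 242 in XAV939 and 84.8 to 98.2 in IWR-1. *Saa2* had 1.36 to 1.53 counts per count of *Saa1* in DMSO, 1.53 to 1.72 in XAV939 and 1.03 to 1.36 in IWR-1. The XAV939 libraries stood above those of both other groups in both ratios, for *Saa2* to *Saa1* by a narrow margin, and the ratios were not tested.

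**Figure D3:**
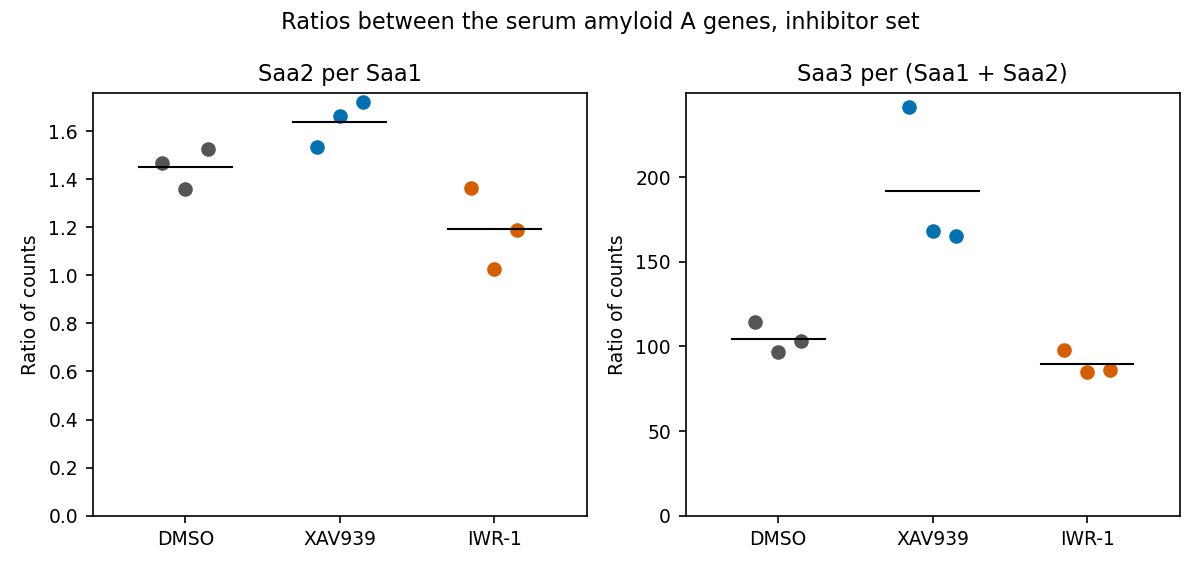
Ratio of counts of *Saa2* to *Saa1* (left) and of *Saa3* to *Saa1* plus *Saa2* (right) in each DMSO, XAV939 and IWR-1 library, with a line at the group mean. The XAV939 libraries of the right panel, at 165 to 242, lie above those of DMSO and IWR-1.

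Knockdown of the tankyrases went the other way for several members. Of 7 genes tested in the siRNA set, *Saa3*, *Hp* and *Cp* were called higher and none lower, 3 of 7, while 18.0% of all genes were called (10.4% higher, 7.61% lower). With the replicate number as a block, 5 of 7 were called higher and none lower, beside 4727 of 13672 genes called (2471 higher, 2256 lower). The levels remained far below those of the inhibitor set, and *Saa3* rested on 65 to 217 and *Hp* on 33 to 139 counts per library.

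*Hp* measured 4.05, 5.03 and 3.10 CPM in siTnks/2 and 1.17, 1.45 and 1.02 CPM in siCtrl (33 to 39 counts per siCtrl library), and rose by 1.74 (SE 0.24, edgeR adjusted p = 0.00773), a 3.35-fold change called in every fit that left out 1 library. *Cp* measured 178, 217 and 162 CPM against 113, 138 and 102 CPM and rose by 0.66 (SE 0.14, edgeR adjusted p = 0.024). The call of *Cp* ended without siCtrl replicate 1 (0.64, adjusted p = 0.0951), siCtrl replicate 3 (0.57, adjusted p = 0.0849) or siTnks/2 replicate 1 (0.69, adjusted p = 0.0692). *Saa3* measured 6.25, 7.85 and 3.36 CPM against 3.06, 2.46 and 2.01 CPM and rose by 1.21 (SE 0.33, edgeR adjusted p = 0.0449). The call of *Saa3* was kept only without siTnks/2 replicate 3, and otherwise the values lay between 0.94 and 1.39 with adjusted p-values from 0.0646 to 0.14.

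*Lcn2* measured 76.6, 121 and 62.1 CPM in siTnks/2 and 31.3, 57.5 and 29.9 CPM in siCtrl, at 1.13 (SE 0.33, edgeR adjusted p = 0.0549). All siTnks/2 libraries of *Lcn2* lay above all siCtrl libraries, and it passed the test with the replicate block (1.14, adjusted p = 0.00131), with DESeq2 (1.13, adjusted p = 0.00188), without a filter on low counts (1.13, adjusted p = 0.0478), without siCtrl replicate 2 (adjusted p = 0.0444) and without siTnks/2 replicate 3 (1.32, adjusted p = 0.0461). *C3* measured 8.69, 20.8 and 11.2 CPM against 6.22, 12.5 and 7.62 CPM, at 0.63 (SE 0.38, edgeR adjusted p = 0.278), and passed with the block (0.60, adjusted p = 0.00765), each same-numbered pair being higher with knockdown. *Cfb* measured 4.99, 5.25 and 6.88 CPM against 3.06, 3.39 and 7.90 CPM, at 0.25 (95% interval −0.62 to 1.13, edgeR adjusted p = 0.664). *Ptx3* measured 48.5, 24.2 and 58.6 CPM against 55.1, 47.1 and 56.8 CPM, at −0.27 (95% interval −0.96 to 0.42, edgeR adjusted p = 0.543). The groups of 4 of the 7 members did not overlap, as was so for 43.8% of all genes.

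The knockdown effects were set against the inhibitor effects in a joint model over the 15 libraries. The knockdown effect was above the IWR-1 effect for 6 of 7 genes, while 24.4% of all genes were called (13.9% in that direction, 10.5% in the other). The difference of log2 effects was 4.85 for *Saa3* (SE 0.49, edgeR adjusted p = 1.3e-05), 4.42 for *Hp* (SE 0.31, edgeR adjusted p = 9.96e-07), 2.88 for *Cfb* (SE 0.40), 2.78 for *Lcn2* (SE 0.41), 1.98 for *C3* (SE 0.46) and 1.03 for *Cp* (SE 0.19). *Ptx3* was not called, at 0.52 (95% interval −0.21 to 1.25, edgeR adjusted p = 0.294), and without siTnks/2 replicate 2 it was at 0.82 (adjusted p = 0.0191). The knockdown effect was above the XAV939 effect for *Saa3*, by 1.89 (SE 0.48, edgeR adjusted p = 0.0187), and for *Hp*, by 1.34 (SE 0.31, edgeR adjusted p = 0.0123), 2 of 7 genes, against 13.5% of all genes (8.07% in that direction, 5.40% in the other). Without siCtrl replicate 3 the call of *Saa3* ended (1.75, adjusted p = 0.0539) and that of *Cfb* appeared (1.47, adjusted p = 0.00971), as did that of *Lcn2* without siCtrl replicate 2 (1.36, adjusted p = 0.0354). With the replicate block 4 genes were called, *Lcn2* (0.98, adjusted p = 0.00147) and *Cfb* (0.98, adjusted p = 0.00372) besides these.

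Genes of the same pathways were examined from lists written from general knowledge, but with earlier results of these data known. The lists are thus not independent of these data, and their counts are a description. Over all genes tested, 20.2% were lower and 16.2% higher with IWR-1, 9.85% and 7.57% with XAV939, and 7.61% and 10.4% with knockdown. With the replicate block, 3514 of 13873 genes were lower and 3079 higher with IWR-1, and 2410 and 2220 with XAV939. Of 13672 genes, 2256 were lower and 2471 higher with knockdown under the block. The counts of each list below are to be read beside these, and some lie near them. Among 17 tested of 28 other acute-phase genes, 13 were lower and 1 was higher with IWR-1, with a median log2 fold change of −1.32. Among those that fell were the orosomucoid genes *Orm2* (−3.46, SE 0.50) and *Orm1* (−2.38, SE 0.28). *Serpina3c* went the other way, from 2.97 ± 1.41 CPM in DMSO to 9.89 ± 2.28 CPM with IWR-1 (SD, n = 3 each). With XAV939, 2 of these 17 were lower and 1 higher (median −0.41), among them *Tnfaip6* (−0.90, SE 0.26) and *Serpina3c* (1.49, SE 0.29), and the replicate block called 7 lower and 2 higher. With knockdown, 2 of 13 were higher and 2 lower (median 0.29), and the block called 5 higher and 3 lower. *A2m*, a broad protease inhibitor, rose by 1.86 (SE 0.27, edgeR adjusted p = 0.00826) and *Serpina3c* by 1.19 (SE 0.18), while *Tnfaip6* fell by 1.02 (SE 0.26). *Saa4*, the constitutive serum amyloid A gene of the same locus, had no count in the siRNA set and fell by 2.08 with IWR-1 (SE 0.19). *Crp* and *Apcs*, the short pentraxins, had no count in any library.

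Of the other complement components, 15 of 29 were tested in the inhibitor set, and 8 were lower and 1 higher with IWR-1 (median −0.92). *C2*, the classical-route counterpart of factor B and its neighbour on chromosome 17, measured 9.79 CPM in DMSO and fell by 2.90 with IWR-1 (SE 0.16, edgeR adjusted p = 1.31e-06) and by 0.98 with XAV939 (SE 0.14, edgeR adjusted p = 0.00107). The proteases *C1s1* and *C1ra* of the C1 complex fell by 1.39 (SE 0.13) and 0.92 (SE 0.12) with IWR-1, at 548 CPM in DMSO for *C1s1*, and neither was called with XAV939. *C4b* rose with knockdown by 1.22 (SE 0.10, edgeR adjusted p = 0.00296), from 252 ± 17.4 to 586 ± 66.9 CPM, and was at −0.11 (SE 0.23) with IWR-1 and at 0.29 (SE 0.23) with XAV939. *C4a*, a near copy of *C4b* that can share its reads, rose by 0.89 (SE 0.19). With XAV939, 3 of the 15 were lower and 2 higher (3 lower and 4 higher with the replicate block), beside 9.85% and 7.57% of all genes. With knockdown 2 of 14 were higher (2 higher and 3 lower with the replicate block), beside 10.4% of all genes. *Cfd*, the protease that activates factor B, had at most 3 counts in any library.

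Complement regulators had 6 of 11 lower with IWR-1 (median −0.86), beside 20.2% of all genes. With XAV939 2 were lower (3 lower and 2 higher with the replicate block), beside 9.85% of all genes. With knockdown 3 of 11 were higher (4 with the block), beside 10.4% of all genes. *Serping1*, the C1 inhibitor, fell from 50.6 ± 11.9 CPM in DMSO to 3.78 ± 0.895 CPM with IWR-1 (−3.73, SE 0.25, edgeR adjusted p = 3.11e-06) and to 25.3 ± 5.18 CPM with XAV939 (−0.98, SE 0.22, edgeR adjusted p = 0.0118). *Clu* (clusterin) rose with knockdown and fell with IWR-1, at 1.36 with knockdown (SE 0.19, edgeR adjusted p = 0.00822) and −1.45 with IWR-1 (SE 0.22, edgeR adjusted p = 0.000501), and *Cd55* rose by 0.82 with knockdown (SE 0.10) and fell by 0.86 with IWR-1 (SE 0.25). Among 9 tested receptors and carriers for the products of the 9 genes, 4 were lower and 1 higher with IWR-1, 2 lower and 1 higher with XAV939 (2 lower and 3 higher with the block), and 1 of 8 lower and 1 higher with knockdown. *Scarb1*, a lipoprotein receptor that binds serum amyloid A, fell with IWR-1 by 1.48 (SE 0.15), with XAV939 by 0.55 (SE 0.15) and with knockdown by 0.54 (SE 0.07). *Slc40a1*, the iron exporter ferroportin that works with ceruloplasmin, rose by 1.91 with knockdown (SE 0.26, edgeR adjusted p = 0.00773) and fell by 1.35 with IWR-1 (SE 0.16) and by 0.95 with XAV939 (SE 0.16). The C3a receptor gene *C3ar1* had at most 2 counts in any library.

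**Figure D4:**
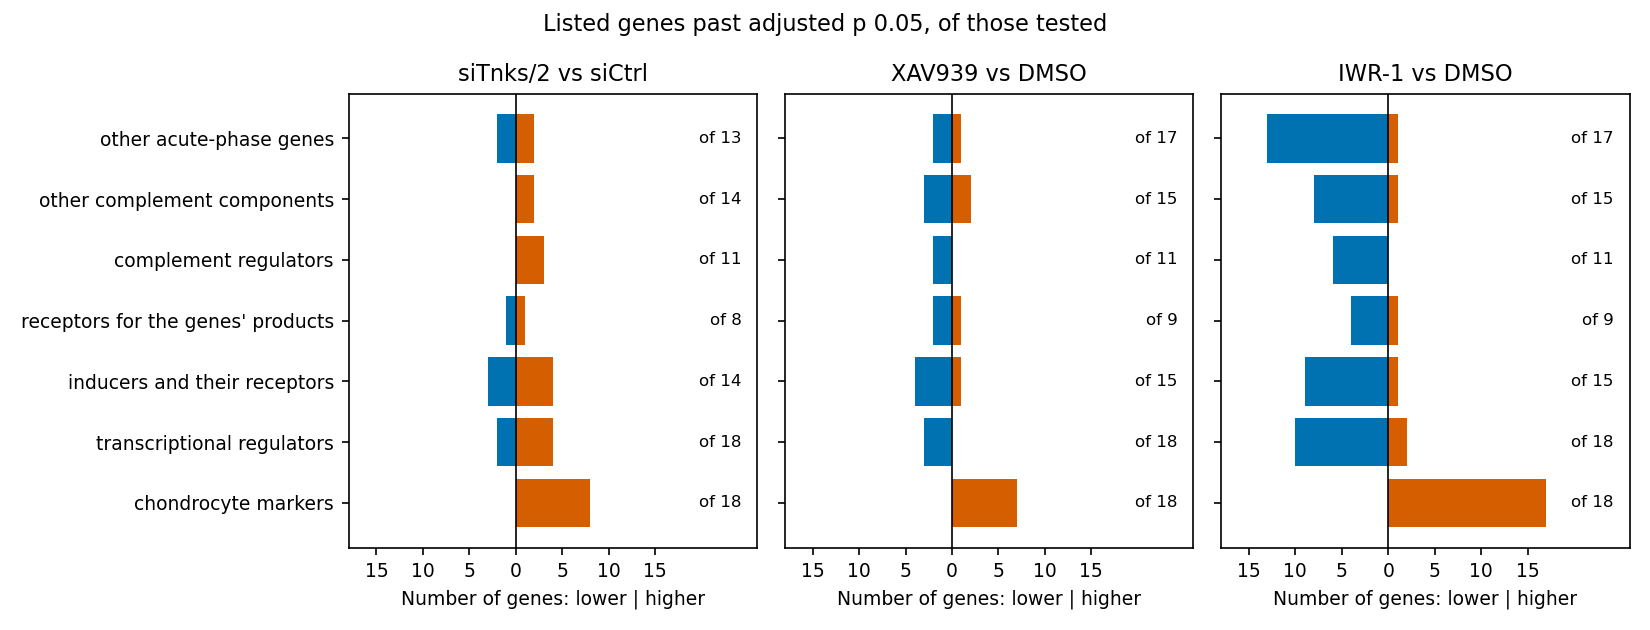
Number of genes of each list that were lower (bars to the left) or higher (bars to the right) at an adjusted p under 0.05, with the number tested at the right edge, for siTnks/2, XAV939 and IWR-1 against their controls. With IWR-1 the acute-phase, complement, inducer and regulator lists have more genes to the left and chondrocyte markers have 17 of 18 to the right. Of all genes tested, 20.2% were lower and 16.2% higher with IWR-1, 9.85% and 7.57% with XAV939, and 7.61% and 10.4% with siTnks/2.

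*Il6*, which encodes the main inducer of the hepatic response, was well measured in the inhibitor set and nearly absent from the siRNA set. *Il6* measured 122 ± 26.7 CPM in DMSO, 35.2 ± 23.7 CPM in XAV939 and 6.95 ± 3.48 CPM in IWR-1 (SD, n = 3 each), against 1 to 3 counts per library in siCtrl and 1 to 2 in siTnks/2. *Il6* fell by 4.12 with IWR-1 (SE 0.49, edgeR adjusted p = 9.47e-05) and by 1.77 with XAV939 (SE 0.44, edgeR adjusted p = 0.0186). *Lif*, another ligand of the shared receptor chain gp130, fell with IWR-1 by 3.69 (SE 0.33), with XAV939 by 1.64 (SE 0.30) and with knockdown by 1.07 (SE 0.24), and *Il11* fell by 4.10 (SE 0.45) and 2.44 (SE 0.40) with the inhibitors. *Il1b* had at most 2 counts in any library. Their receptors changed less. *Il6st*, which encodes gp130, and *Osmr* were not called in any of the 3 comparisons, with log2 fold changes from −0.38 to −0.011, and *Il1r1* fell by 0.92 with IWR-1 (SE 0.23) and by 0.64 with knockdown (SE 0.08). Of the inducers and receptors, 9 of 15 were lower and 1 higher with IWR-1, 4 and 1 with XAV939 (6 and 2 with the replicate block), and 3 of 14 lower and 4 higher with knockdown.

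Of 18 transcriptional regulators, 10 were lower and 2 higher with IWR-1 (median −0.51), beside 20.2% and 16.2% of all genes. The replicate block called 11 lower and 2 higher. *Nfkbiz*, which encodes the nuclear cofactor IκBζ needed for *Lcn2* induction, fell from 311 ± 30.4 to 95.4 ± 12.3 CPM (−1.69, SE 0.13, edgeR adjusted p = 5.84e-06). *Socs3*, a feedback gene of STAT3, fell by 1.49 (SE 0.15), *Zc3h12a*, the RNase regnase-1 that degrades *Il6* mRNA, by 1.65 (SE 0.11), *Nfkbia*, the NF-kB inhibitor IκBα, by 1.11 (SE 0.11), *Nfkb1* by 0.68 (SE 0.11), *Rela* by 0.62 (SE 0.10), *Nfkb2* by 0.55 (SE 0.11), *Bcl3* by 0.50 (SE 0.14) and *Stat3* by 0.43 (SE 0.13). Of the C/EBP genes, *Cebpa* fell by 0.52 (SE 0.16), *Cebpg* rose by 0.32 (SE 0.11), and *Cebpb* (−0.45, SE 0.34) and *Cebpd* (−0.47, SE 0.19) were not called. *Tsc22d3* rose by 0.40 (SE 0.13). *Rel*, *Relb*, *Hif1a* and *Nr3c1* were not called with IWR-1.

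With XAV939, *Nfkbiz* (−0.54, SE 0.12), *Socs3* (−0.51, SE 0.14) and *Rela* (−0.39, SE 0.10) were lower and none of the 18 was higher, while the replicate block called 7 lower and 1 higher, and *Cebpb* stood at 0.92 (SE 0.34, edgeR adjusted p = 0.0857). With knockdown, *Cebpa* rose by 0.85 (SE 0.15, edgeR adjusted p = 0.0146), *Hif1a* by 0.38 (SE 0.08), *Stat3* by 0.32 (SE 0.07) and *Cebpg* by 0.21 (SE 0.05), and *Zc3h12a* fell by 0.75 (SE 0.14) and *Nfkb2* by 0.40 (SE 0.08), and the block called 4 higher and 6 lower. Whether these regulators acted on the 9 genes was not tested.

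**Figure D5:**
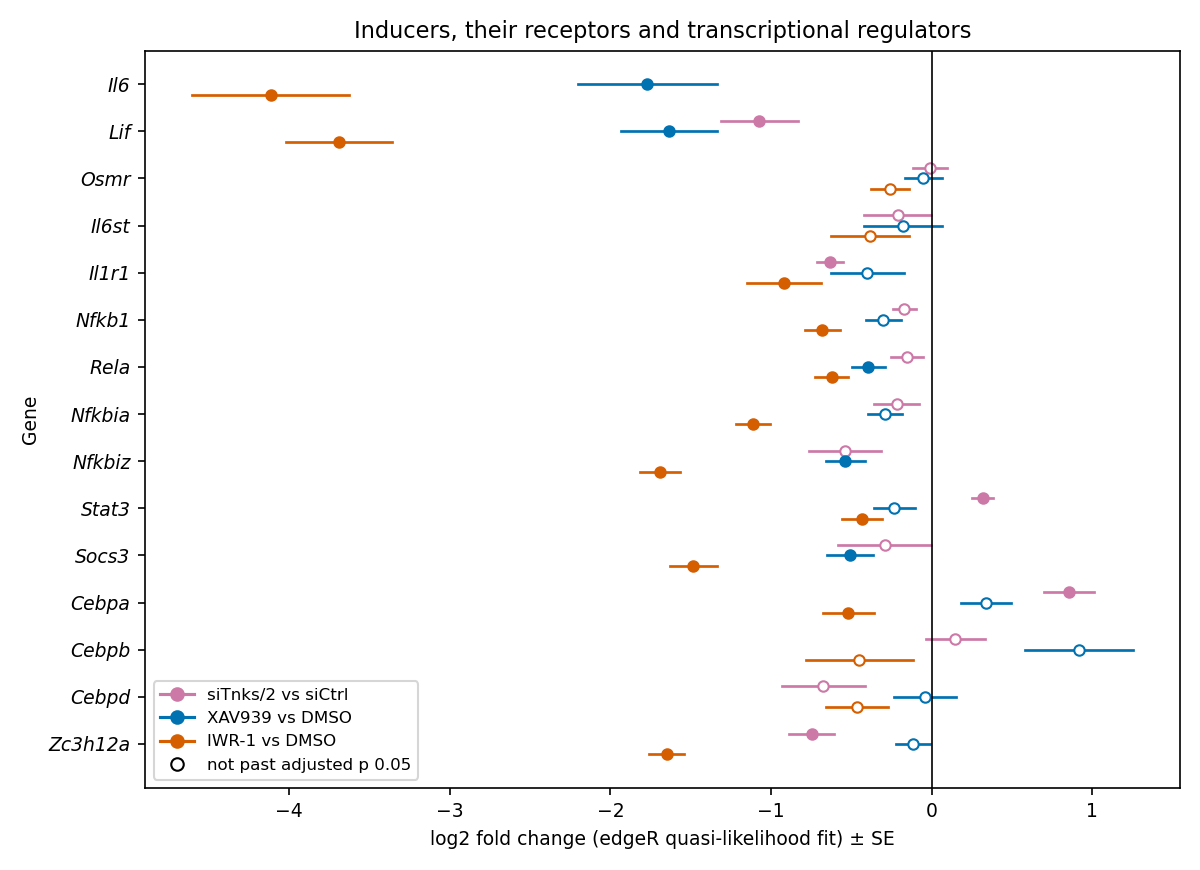
Log2 fold change with SE (edgeR fit) of some of the listed inducing cytokines, their receptors and transcriptional regulators for siTnks/2, XAV939 and IWR-1 against their controls. The regulators *Cebpg* and *Tsc22d3*, which were higher with IWR-1, are not plotted. *Nfkb2*, *Bcl3*, *Rel*, *Relb*, *Hif1a* and *Nr3c1* are not plotted either. Filled circles passed an adjusted p of 0.05. Of the genes plotted, *Il6* and *Lif* lie furthest left with IWR-1, at −4.12 and −3.69 (*Il11* is not plotted), and *Il6* has no value in the siRNA set because it had at most 3 counts per library there.

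Markers of the chondrocytes themselves and of other cells also differed between the groups. Of 18 chondrocyte markers, 17 were higher with IWR-1 (median 1.74), 7 with XAV939 and 8 with knockdown (14 and 13 higher with the replicate block), and none was lower. Over all genes, 16.2%, 7.57% and 10.4% were higher. *Acan*, which encodes aggrecan, rose by 2.95 (SE 0.24), 1.21 (SE 0.23) and 0.96 (SE 0.18). Of 13 synovial and fibroblast markers tested, 6 were lower and 1 higher with IWR-1, 5 were lower with XAV939 and 1 was higher with knockdown. Under the block, 9 were lower and 2 higher with IWR-1, 6 and 1 with XAV939, and 3 and 2 with knockdown. Over all genes, 20.2%, 9.85% and 7.61% were lower. Their summed level was 13096 to 15276 CPM in DMSO, 6446 to 9202 CPM in XAV939, 4819 to 7120.0 CPM in IWR-1, 4234 to 6489 CPM in siCtrl and 2944 to 5449 CPM in siTnks/2. Of the 6 synovial and fibroblast markers lower with IWR-1, *Col3a1* fell by 1.54 (SE 0.23) and *Pdgfra* by 1.77 (SE 0.33). Another 6 of the 13 were not called with IWR-1, and the median log2 fold change was −0.49. The 17 leukocyte markers summed to 15.7 to 20.4 CPM in DMSO and 17.3 to 17.8 CPM in IWR-1, with 4 of 8 tested lower and 1, *Laptm5*, higher by 2.72 (SE 0.21). They summed to 17.9 to 19.9 CPM in siCtrl and 38.6 to 60.7 CPM in siTnks/2, where *Laptm5* rose by 1.86 (SE 0.21). Endothelial markers summed to 7.93 to 42.1 CPM over all libraries, with 3 of 4 tested lower with IWR-1, and hepatocyte markers to at most 1.38 CPM, with none of 1 tested called. In bulk RNA, fewer cells of a type and less RNA per cell cannot be told apart, and the part of these cell populations in the results for the 9 genes was not tested.

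The genes whose log2 CPM followed those of the 3 highest members most closely, over the 15 libraries taken relative to the control of their own set and among 13341 genes, were found by Pearson's r. For *Saa3* they were *Slc48a1* (r = 0.984), *Ifnar2* (0.982) and *Kifbp* (0.977), and for *Lcn2* they were *Clu* (0.981), *Dmpk* (0.975) and *Hp* (0.974). For *Hp* they were *Clu* (0.979), *Lcn2* (0.974) and *Hsf4* (0.972). Over the 9 libraries of the inhibitor set alone, the closest were *Sdc4* (0.996) for *Saa3*, *Aldh1l1* (0.995) for *Lcn2* and *Zfp467* (0.998) for *Hp*. These values describe the same libraries, in which IWR-1 stands apart from the other groups, and carry no test.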

How the data were processed

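Total RNA of 15 cultures was made into stranded poly(A) libraries. What the authors deposited were raw read counts per gene, made with HTSeq 0.6.1p1 after trimming (Trimmomatic 0.32) and alignment to the mm10 build (TopHat2 2.0.13), as named in the submitters' processing notes. The annotation and strand setting are not given in the sources used here, so overlapping genes stay uncertain.

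These counts entered edgeR 4.0.16 under R 4.3.3 (filterByExpr, TMM, quasi-likelihood F test), each set in 1 model over its groups, and differences of effects and DMSO against siCtrl in 1 model over all libraries. The Benjamini-Hochberg adjustment covered every gene of a fit. Of 24134 gene IDs, 24051 matched a symbol. RPKM used the GENCODE exon union, with RefSeq-linked transcript lengths as an alternative added later. Transcripts were aligned with Biopython 1.88. Only the edgeR fit and test were tried on simulated counts, with the same spread set for every gene and no replicate pairing. The outcome is not given here. Floors cover counting error only, as reads carry no molecular identifiers. Exact permutation tests were two-sided.

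The members and all gene lists were chosen with earlier results of these data known. Genes named were *Tnks*, *Tnks2*, the 9 members, per list and comparison up to 3 genes with the largest change among those called with groups that did not overlap, a fixed set of inducers, regulators and complement genes, and the 3 genes most like *Saa3*, *Lcn2* and *Hp*. *Crp*, *Apcs*, *Ptprc* and *Ttr*, and the untested *Cfd*, *C3ar1* and *Il1b*, are named outside this rule, after their values were seen. Some genes that the rule names are not reported here.

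Deviations from the group means were correlated between libraries of a set that share a replicate number, which is that of the sample titles. In the siRNA set r was 0.424 to 0.519 in 3 such pairs and −0.409 to 0.0972 in 6 other pairs. In the inhibitor set it was 0.143 to 0.553 in 9 such pairs and −0.489 to 0.318 in 18 other pairs. The numbers thus pair the siRNA libraries, while for the inhibitor libraries the ranges overlap and the pairing is less certain. The SEs and intervals printed come from fits that do not use this pairing. For the 9 members, a fit blocking on the replicate number is printed where it changed a call. For the lists and their genes it is printed only in part, so a count without it may also change. Alternatives were RLE and upper-quartile scaling, no filter or at least 10 counts in every library, DESeq2 1.42.0, fits of 2 groups, the summed counts of *Saa1* and *Saa2*, and leaving out each library.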

Additional observations from a re-analysis of the deposited data

Results flagged for a closer look

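The effects of knockdown and of the inhibitors differed for several members by a test of the difference itself, in edgeR's model over the 15 libraries. Against XAV939, the knockdown effect was higher by 1.89 for *Saa3* and by 1.34 for *Hp* on the log2 scale. Against IWR-1 it was higher by 4.85 for *Saa3*, 4.42 for *Hp*, 2.88 for *Cfb*, 2.78 for *Lcn2*, 1.98 for *C3* and 1.03 for *Cp*. For *Saa3*, *Hp* and *Cp* the knockdown effect was a call above 0 and the IWR-1 effect a call below 0. With 1 library left out, the knockdown call was kept in 6 of 6 fits for *Hp*, 3 of 6 for *Cp* and 1 of 6 for *Saa3*. The IWR-1 call was kept in 9 of 9 such fits for *Hp* and *Saa3* and in 4 of 9 for *Cp*. The starting levels differed as well, with *Saa3* at 2.51 ± 0.526 CPM in siCtrl and 18915 ± 5696 CPM in DMSO (SD, n = 3 each). The siRNA and inhibitor sets differed in transfection, solvent and possibly time, which cannot be told apart from the kind of treatment, and the part of the starting level was not tested. No group had more than 3 libraries, so no library was examined as an outlier.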

How the results depend on the processing

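With the replicate block, 5 members were called with siTnks/2 in place of 3, and 4 in place of 2 in the difference between the knockdown and XAV939 effects. The block also called *Saa3* and *Hp* with XAV939 and changed no other call of a member. It raised the calls over all genes as well, from 2459 to 4727 with siTnks/2, from 2416 to 4630 with XAV939, from 2442 to 4258 for IWR-1 against XAV939 and from 1922 to 4018 for the knockdown minus XAV939 difference, so the members' counts are to be read against that larger background. When 1 library was left out, 1 to 4 members were called with siTnks/2 (1 without siCtrl replicate 1, siCtrl replicate 3 or siTnks/2 replicate 1) and 2 to 3 with XAV939 (2 without any DMSO replicate, IWR-1 replicate 2 or XAV939 replicate 1). Over all genes these fits called as few as 608 with siTnks/2 (without siCtrl replicate 1), 1322 with XAV939 (without DMSO replicate 1), 1343 for IWR-1 against XAV939 (without IWR-1 replicate 2) and 1241 for the knockdown minus XAV939 difference (without siCtrl replicate 1). A fit of XAV939 and DMSO alone called 1569. Of 1016 repeated member fold changes, 960 kept direction and call, 36 lost the call, 13 gained it and 7 turned, none of the 7 called in the fit reported. Leaving out 1 library, *C3* ranged from −0.060 (without siTnks/2 replicate 2) to 0.75 in the knockdown minus XAV939 difference and from −0.093 (without XAV939 replicate 2) to 0.39 with XAV939. *Lcn2* ranged from −0.057 (without DMSO replicate 3) to 0.35 with XAV939. *Ptx3* ranged from −0.36 to 0.19 in the knockdown minus XAV939 difference, above 0 without siTnks/2 replicate 2 (0.19) or DMSO replicate 3 (0.07), from −0.54 to 0.020 (without siTnks/2 replicate 2) with knockdown, and from −0.35 to 0.0043 (without DMSO replicate 2) with XAV939. The cause was not tested. Members called with IWR-1, against DMSO or XAV939, came to 8 or 9 in every such fit. *Saa1* and *Saa2* in the siRNA set lay below what the depth could show.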
